A study of Mus musculus with 6 samples.

Results

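DNA methylation at the *Peg3*, *Impact* and *Peg13* imprinted loci was examined in cultured spermatogonia (GS cells) by reduced representation bisulfite sequencing (RRBS). The 8 genes were *Peg3*, *Usp29*, *Zim1*, *Impact*, *Inpp5f*, *Peg13*, *Trappc9* and *Slc38a4*, out of 31751 genes in the deposited table. A CpG site was taken for a gene when that gene had the closest transcription start site (TSS), at any distance. Of 863 such sites, 210 had at least 10 reads in all 6 samples, 246 had at least 5 and 103 had at least 20. The Space GS cells (3 replicates) had been kept frozen for 6 months aboard the ISS, and the Ground GS cells (3 replicates) had been kept frozen equally long on Earth. Both groups carried the same transgene, labelled DBA/Tg14(act-EGFP-OsbY01), which came from a C57BL6 line and was bred into the DBA/2 background, and DNA was taken after thawing and passages. GS cell cultures hold spermatogonial stem cells among other spermatogonia, and each sample was a bulk of cells. An intermediate methylation level can therefore not be told apart as a difference between cells or between the alleles of a cell. Expression markers of spermatogonia were not measured by this assay, so the cell type label was not checked here.

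Imprinted genes are expressed from the allele of a single parent. The choice is commonly, but not always, set by a differentially methylated region (DMR) that is methylated in either the oocyte or the sperm. The DMRs at the *Peg3*/*Usp29* promoter, in *Impact*, in *Inpp5f*, at *Peg13* and at *Slc38a4* are known as oocyte-methylated, and neighbouring genes such as *Zim1* and *Trappc9* are regulated from them. Parental marks are erased in primordial germ cells, and the male germ line does not methylate the oocyte-type DMRs again, so that sperm carry them unmethylated.

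RRBS starts from fragments cut at CCGG, so it reads CpG sites close to such sites. The *Zim1* window is shown because the measured CpG sites of that start could be placed in it. It is the RefSeq promoter (GRCm38.p6, chr7:6696383-6696682, minus strand), and capitals mark the 6 measured CpG sites, 5′ to 3′.
Zim1: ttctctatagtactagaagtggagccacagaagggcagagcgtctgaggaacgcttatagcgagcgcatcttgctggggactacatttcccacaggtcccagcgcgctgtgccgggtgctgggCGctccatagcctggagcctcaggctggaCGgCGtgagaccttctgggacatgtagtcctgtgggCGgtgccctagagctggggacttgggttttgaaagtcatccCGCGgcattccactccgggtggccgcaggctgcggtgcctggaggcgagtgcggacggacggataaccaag
The spacing of the 6 measured sites fell on CpGs of this window at a single offset only, by which they were placed. They were all 6 CpGs that lie between the 2 CCGG sites of the window, which are 132 bases apart. The window holds 20 CpGs, and 26.5% of all 32851 promoter windows of this length hold at least as many. CCGG (the same letters on both strands) was present in 52.8% of them.

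The start shared by *Peg3* and *Usp29* and the start of *Slc38a4* are shown for comparison, with every CpG in capitals. The *Usp29* window (GRCm38.p6, chr7:6730333-6730632, plus strand) also spans the *Peg3* start on the other strand, and the *Slc38a4* window is chr15:97055907-97056206, minus strand.
Usp29: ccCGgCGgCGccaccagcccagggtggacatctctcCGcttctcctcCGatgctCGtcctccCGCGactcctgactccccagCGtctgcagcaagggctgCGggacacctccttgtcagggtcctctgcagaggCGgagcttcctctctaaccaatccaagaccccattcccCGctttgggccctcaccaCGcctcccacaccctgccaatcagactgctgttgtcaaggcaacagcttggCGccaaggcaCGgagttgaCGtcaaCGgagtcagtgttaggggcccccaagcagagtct
Slc38a4: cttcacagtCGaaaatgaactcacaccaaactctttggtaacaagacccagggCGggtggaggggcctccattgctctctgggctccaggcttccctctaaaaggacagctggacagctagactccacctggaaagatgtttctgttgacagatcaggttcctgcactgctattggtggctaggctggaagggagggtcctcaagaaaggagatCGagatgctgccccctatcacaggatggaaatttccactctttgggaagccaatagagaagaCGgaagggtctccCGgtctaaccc
The *Usp29* window holds 17 CpGs, and 31.4% of all windows hold at least as many. The *Slc38a4* window holds 5 CpGs, and 62.0% of all windows hold at least as many. Each has 1 CCGG, and no CpG site in either window had 10 reads in all samples. RefSeq windows were found for 5 of the 8 genes. They use another genome build than the deposited positions, which are mm39.

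Of the 210 sites, 109 lay beyond 1 kb of the TSS and the others within it. The sites within 1 kb were almost free of methylation in every sample. Each had a mean level over the 6 samples below 10%, and their mean was 1.52%. Among all 390568 sites within 1 kb of any TSS, 98.7% were below 10% and the mean was 2.46%. Beyond 1 kb the picture was mixed: 43 sites (39.4%) were below 10%, 19 (17.4%) were between 10% and 90%, and 47 (43.1%) were above 90%. The same shares over all 291236 distal sites were 48.8%, 16.5% and 34.7%. Of the 36 further sites that had 5 to 9 reads in at least 1 sample, 32 were above 90%, 1 was intermediate and 3 were below 10%.

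**Figure D1:**
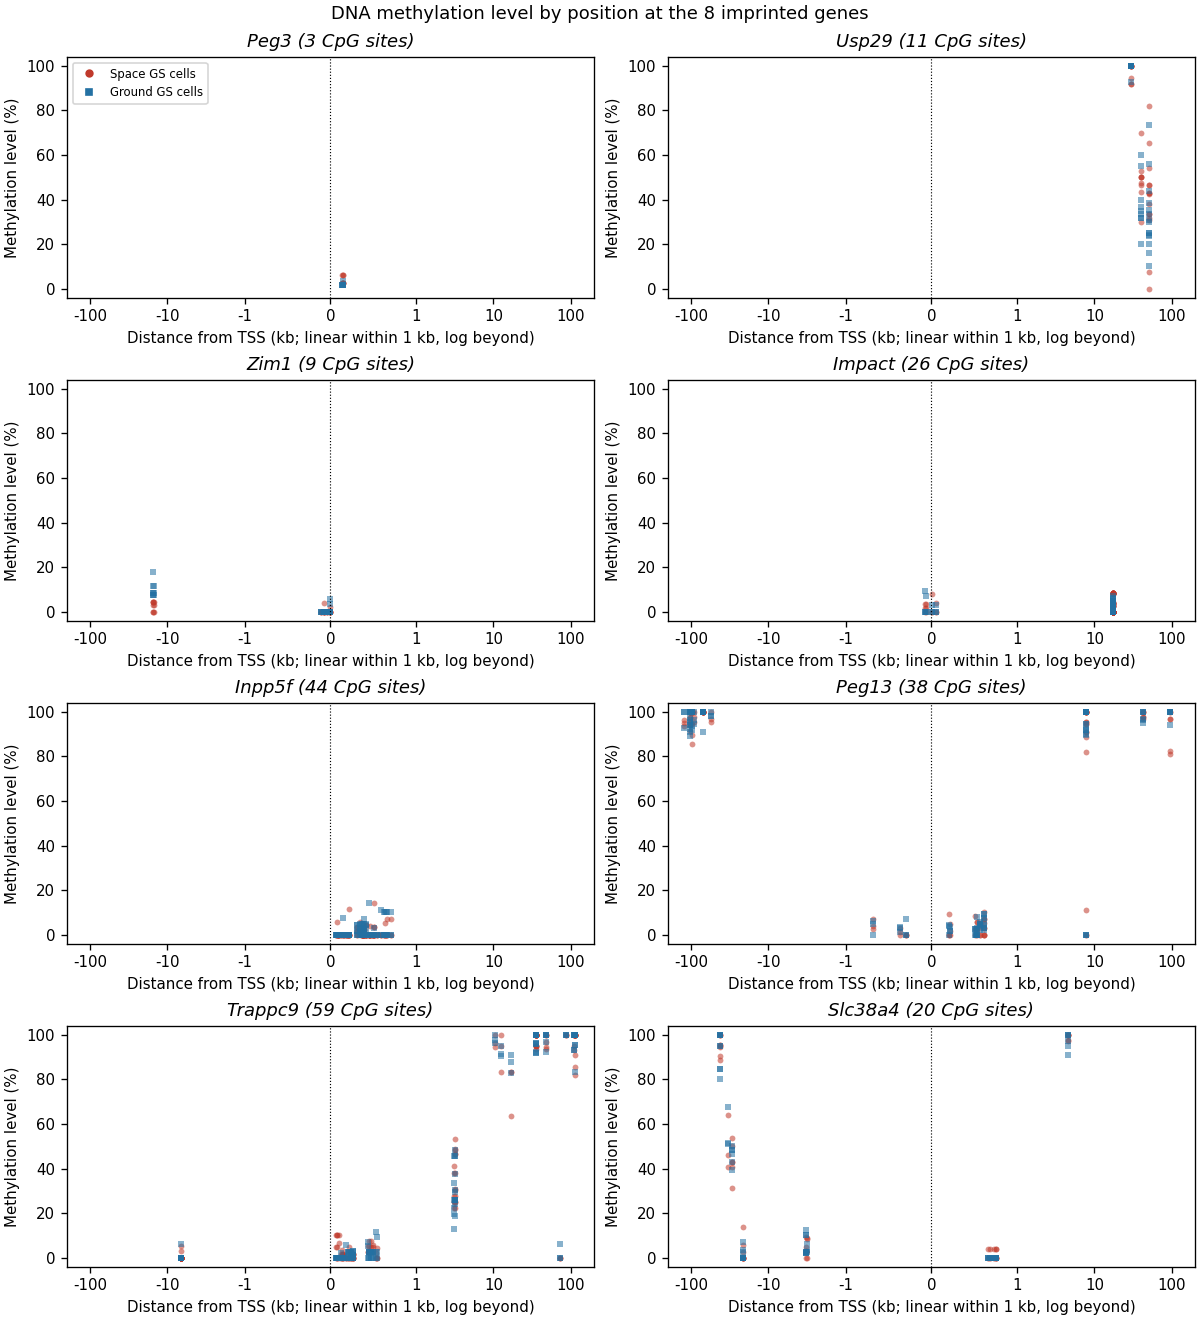
Methylation level (%) of each CpG site in each replicate against distance from the TSS (kb, linear within 1 kb and logarithmic beyond), for the 8 genes; red circles are Space replicates and blue squares Ground replicates. Every site within 1 kb lies low, and intermediate levels appear downstream of the *Usp29* and *Trappc9* starts and upstream of the *Slc38a4* start.

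**Figure D2:**
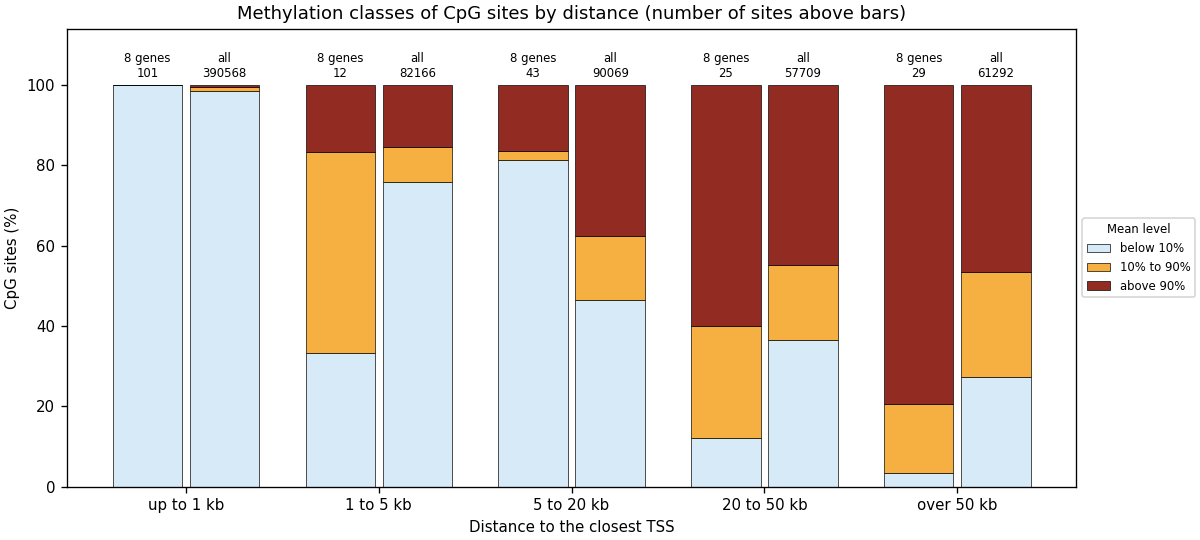
Share of CpG sites (%) below 10%, between 10% and 90% and above 90% mean methylation, by distance to the closest TSS, for the 8 genes (left bars) and all genes (right bars), with the number of sites above each bar. The sites of the 8 genes within 1 kb are all in the lowest class, and 23 of the 29 sites over 50 kb away are in the highest.

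The first locus lies on chromosome 7. *Peg3* (ENSMUSG00000002265, TSS at mm39 position 6733430, minus strand) encodes a zinc finger protein expressed from the paternal allele, and *Usp29* (ENSMUSG00000051527, TSS 6733577, plus strand) encodes a ubiquitin-specific peptidase and starts 147 bp away on the other strand. *Zim1* (ENSMUSG00000002266, TSS 6699449, minus strand) is a maternally expressed zinc finger gene whose start lies 33981 bp from that of *Peg3*.

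*Peg3* had 3 sites with at least 10 reads, 131, 141 and 152 bp downstream of its TSS, with 39 to 57 reads per sample. Their mean level was 2.38%, 6.12% and 2.56% in the Space replicates and 1.75%, 2.45% and 1.85% in the Ground replicates. All samples were low, Space replicate 2 stood above the others, and the site means ran from 2.75% at 131 and 141 bp to 3.06% at 152 bp. At 131 and 141 bp the groups did not overlap, with Ground replicates at 1.75%, 1.82% and 1.85% and the lowest Space replicate at 2.38%. Both sites were below the mean level needed for the site test. Among all sites tested, 9.07% did not overlap. The group means were 3.69% ± 2.11 and 2.02% ± 0.375 (SD, n = 3 each), and they did not differ beyond the spread between replicates (exact permutation test, two-sided, p = 0.2, adjusted p = 0.65 over the 13 promoter and distal levels compared). With 3 replicates a group, the smallest p this exact permutation test allows is 0.1, so it could not show a difference at 0.05.

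The 3 *Peg3* sites also lie 278 to 299 bp from the *Usp29* start, on its upstream side, but were assigned to *Peg3* as the closer TSS. Sites assigned to *Usp29* had 10 reads only farther away, and these 11 lay 29279 to 51381 bp downstream. They held most of the intermediate methylation of this locus. The 3 sites at 29279 to 29341 bp were almost fully methylated, with regional levels of 98.2%, 94.4% and 100% in the Space replicates and 100%, 100% and 97.6% in the Ground replicates, and the site at 29341 bp was at 100% in every sample. A region is a run of 3 or more sites with gaps of up to 100 bp, and its level is taken over the summed reads of its sites.

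The 3 sites at 39813 to 39918 bp had regional levels of 56.7%, 40.0% and 50% in the Space replicates and 33.3%, 31.1% and 50% in the Ground replicates. The groups overlapped, with means of 48.9% ± 8.39 and 38.1% ± 10.3. The 5 sites at 51115 to 51381 bp had regional levels of 40.8%, 37.0% and 39.3% in Space and 32.4%, 34.9% and 31.5% in Ground. Here every Space replicate was above every Ground replicate, by a mean of 6.10 percentage points. The quasi-binomial test over all regions gave p = 0.194 (adjusted p = 0.906, Benjamini-Hochberg). This p is not set by the replicate spread of this region alone, since the test shares part of its error term with all regions.

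Within this last region the sites differed from each other more than the groups did, with mean levels from 14.5% at 51115 bp to 49.9% at 51161 bp. The site at 51252 bp was at 37.9%, 42.4% and 54.2% in Space and 24%, 33.3% and 25% in Ground, without overlap. The site at 51381 bp had the largest group difference among all 210 sites and was the only site that differed by more than 20 points. Its levels were 42.9%, 33.3% and 81.8% in Space and 23.5%, 25% and 43.8% in Ground, on 11 to 21 reads. The groups overlapped, and the means were 52.7% ± 25.7 and 30.8% ± 11.3 (quasi-binomial p = 0.13, adjusted p = 0.95). Over all sites tested, 1.45% differed by more than 20 points.

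*Zim1* was almost unmethylated at its start and slightly methylated 15 kb upstream. The 6 sites at the start, from 108 bp upstream to the TSS itself, averaged 0.667%, 0% and 0.355% in Space and 0.575%, 0.926% and 0% in Ground. All samples were below 1%, and 4 of the 6 sites had no methylated read in any sample. In the 2 samples at 0, the deepest site had 18 and 28 reads, which allows levels of up to 16.7% and 10.7% (3 reads of the depth, counting error only).

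The 3 sites at 15138 to 15036 bp upstream of *Zim1* had identical coverage in every sample (17 to 35 reads), so they may come from the same reads. Their regional levels were 1.52%, 4.17% and 2.15% in Space and 7.41%, 13.7% and 8.57% in Ground. Every Ground replicate was above every Space replicate, and the highest of the 3 sites, 15134 bp upstream, averaged 6.84%. The regional means were 2.61% ± 1.38 and 9.90% ± 3.36, a difference of -7.29 percentage points (Space minus Ground), with p = 0.0337 and an adjusted p of 0.864 by the quasi-binomial test over all 49134 regions. It was the only one of the 24 regions of these genes with an unadjusted p under 0.05, where 5.65% of all regions had such a p. This p was no longer under 0.05 when Space replicate 3, Ground replicate 2 or Ground replicate 3 was left out. If the 3 sites come from the same reads, the regional test counts those reads more than once. Singly, the quasi-binomial test gave p = 0.138 at 15036 and 15138 bp (adjusted p = 0.948) and p = 0.0877 at 15134 bp (adjusted p = 0.928).

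**Figure D3:**
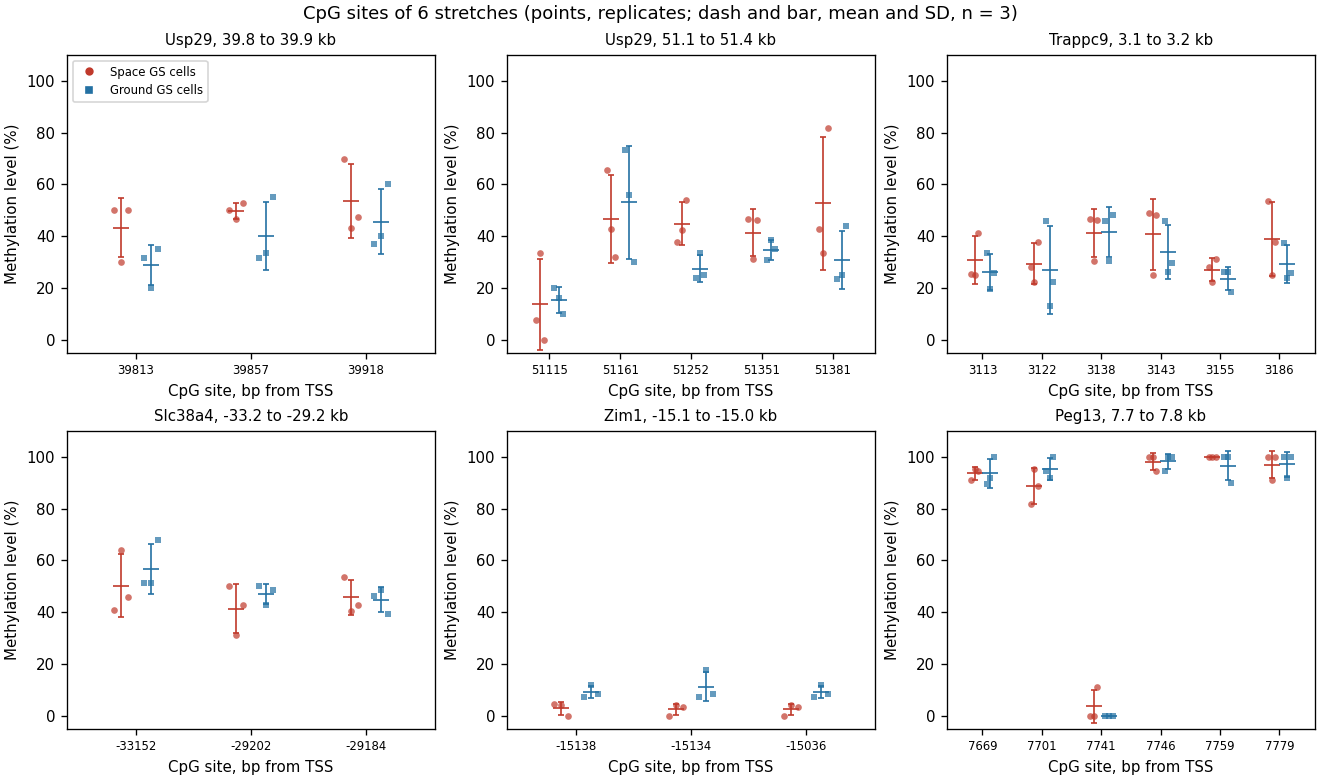
Methylation level (%) of single CpG sites in 6 stretches, labelled by distance from the TSS in bp; circles are Space replicates, squares Ground replicates, and dashes with bars the mean and SD (n = 3). The groups overlap at most sites, the 3 *Zim1* sites are higher in every Ground replicate, and a single *Peg13* site lies near 0 among highly methylated neighbours.

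*Impact* (ENSMUSG00000024423, chromosome 18, TSS 13088909, plus strand) encodes a regulator of the GCN2 kinase in translational control and is expressed from the paternal allele. Its 26 sites were all below 10%. The 4 sites around the TSS, from 74 bp upstream to 57 bp downstream, averaged 0%, 1.75% and 3.88% in Space and 0%, 5.50% and 0% in Ground. The groups overlapped, with means of 1.88% ± 1.94 and 1.83% ± 3.17 (exact permutation p = 1, two-sided). The 3 samples at 0 had 34 to 45 reads at the deepest site, which allows up to 6.67% to 8.82%.

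The other 22 sites of *Impact* formed a 330 bp region 17288 to 17617 bp downstream of the TSS, which lies between annotated *Impact* starts 16420 and 18446 bp from the first (GENCODE M21, an earlier build). Its levels were 0.883%, 2.70% and 2.44% in Space and 0.766%, 2.44% and 2.86% in Ground. Both groups were low, at 2.01% ± 0.982 and 2.02% ± 1.11, and single sites ranged from 0.694% to 3.63%.

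*Inpp5f* (ENSMUSG00000042105, chromosome 7, TSS 128213052, plus strand) encodes an inositol phosphatase, and a short form of it that starts inside the gene is the imprinted one. Its 44 sites with at least 10 reads lay in a single region 66 to 707 bp downstream of the first TSS, with 12 to 86 reads. The regional level was 1.35%, 0.904% and 0.638% in Space and 1.66%, 0.977% and 1.30% in Ground. No sample reached 2%, and 16 of the 44 sites had no methylated read in any sample, on 85 to 177 reads each over the 6 samples. The highest of the 44 sites, 506 bp downstream, averaged 2.96%. The 5 further sites with 5 to 9 reads in at least 1 sample lay 8519 to 8371 bp upstream. They were almost fully methylated, with site means from 95.3% to 100%.

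The inner starts of *Inpp5f* lie 76218 and 77161 bp from the first in GENCODE M21. The deposited table gives sites in that stretch to another closest gene, *Gm44674*, and they are therefore no sites of *Inpp5f* by the rule used here. The 11 such sites with at least 10 reads, 76763 to 76972 bp from the *Inpp5f* TSS, had mean levels from 0% to 3.23%.

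*Peg13* (ENSMUSG00000106847, chromosome 15, TSS 72682173, minus strand) is a noncoding RNA expressed from the paternal allele. It lies inside *Trappc9* (ENSMUSG00000047921, TSS 72933053, minus strand), which encodes a subunit of the TRAPP complex of vesicle trafficking and starts 250880 bp away. Both starts were low, while the gene body between and beyond them was mostly methylated.

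The 14 sites within 1 kb of the *Peg13* TSS averaged 2.11%, 4.64% and 2.01% in Space and 4.16%, 4.04% and 1.68% in Ground. The groups overlapped, with means of 2.92% ± 1.49 and 3.30% ± 1.40 (exact permutation p = 1, two-sided). The lowest of them averaged 1.15%. Beyond 1 kb, 23 of 24 sites were above 90%, 2 of them at 100% in every sample, and the distal mean was 93.0% ± 0.690 in Space and 93.5% ± 0.256 in Ground. The regions 70671, 98489 and 103056 bp upstream had mean levels of 99.5%, 97.5% and 97.1%.

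The remaining distal site of *Peg13*, 7741 bp downstream, had 2 methylated reads of 92 over the 6 samples. Its 5 neighbours, 7669 to 7779 bp downstream, had 441 methylated reads of 460. The neighbours averaged 95.5% in Space and 96.3% in Ground, against 3.70% and 0% at the low site, so both groups showed the same step. A position that is no CpG in the strain used would also be read as unmethylated, and the strain's sequence at this site was not examined.

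At the *Trappc9* start, the 25 sites within 1 kb averaged 2.01%, 1.97% and 2.64% in Space and 1.57%, 0.496% and 1.88% in Ground. Every Space replicate was above every Ground replicate, by 0.890 percentage points on average (exact permutation p = 0.1, two-sided, the smallest possible, adjusted p = 0.65). When the reads of the 25 sites were summed, the means were 1.75% and 1.40% and the groups overlapped. The 9 sites at 6713 to 6607 bp upstream were the lowest region of all, at 0.301% ± 0.293 in Space and 0.231% ± 0.401 in Ground, and 6 of them had no methylated read.

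Between 3113 and 3186 bp downstream of the *Trappc9* TSS, 6 sites were partly methylated. The regional levels were 38.4%, 25% and 40.5% in Space and 39.2%, 23.2% and 28.4% in Ground, with 23 to 46 reads per site. The replicates of each group differed by more than 15 points, and the groups overlapped (34.6% ± 8.39 and 30.2% ± 8.15, quasi-binomial p = 0.287, adjusted p = 0.934). Each of the 6 sites was intermediate, from 25.3% to 41.3%.

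Farther into *Trappc9*, methylation was high, at 98.6% and 97.8% in the region 35162 bp downstream and at 96.5% and 97.9% in the region 114998 bp downstream, in Space and Ground. In this gene 2 sites were at 100% in every sample. The site at 16609 bp averaged 76.7% ± 11.5 in Space and 87.3% ± 4.12 in Ground, and it was the member site with the lowest p by the quasi-binomial test (0.0611, adjusted p = 0.906). Its levels were 63.4%, 83.3% and 83.3% in Space and 82.9%, 91.1% and 87.8% in Ground. The difference was -10.6 percentage points, and -3.95 without Space replicate 1, a value added after seeing the data. The site at 73663 bp had 1 methylated read of 122 over the 6 samples, and the strain's sequence was not examined there either.

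*Slc38a4* (ENSMUSG00000022464, chromosome 15, TSS 96953837, minus strand) encodes an amino acid transporter expressed from the paternal allele in the placenta. The 5 sites 655 to 752 bp downstream of its TSS were at 0% in 5 samples and at 3.70% in Space replicate 3. The samples at 0 had 21 to 39 reads at the deepest site, which allows up to 7.69% to 14.3%. The group means were 1.23% ± 2.14 and 0% (quasi-binomial p = 0.148, adjusted p = 0.928).

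Upstream of *Slc38a4*, the sites with at least 10 reads went from low levels near the gene through intermediate to high levels farther away in both groups. A site with fewer reads, 12006 bp upstream, averaged 91.7% and departs from this order. The region 3252 to 3118 bp upstream was at 3.93% ± 0.461 in Space and 5.17% ± 4.07 in Ground, and the region 21425 to 21378 bp upstream, with a site that had no methylated read in any sample, was at 2.42% ± 2.08 and 1.29% ± 0.716. A pair of sites 29202 and 29184 bp upstream averaged 44.2% and 45.2% over the 6 samples, and a site 33152 bp upstream averaged 53.5%. The region 42463 to 42392 bp upstream was at 95.6% ± 1.36 and 93.2% ± 2.81. In this last region the site at 42392 bp was at 88.9%, 95.7% and 95.2% in Space and 84.6%, 80.0% and 84.6% in Ground, without overlap (quasi-binomial p = 0.13, adjusted p = 0.94). Downstream, sites 4561 and 4568 bp from the TSS averaged 97.1% and 99.2%.

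**Figure D4:**
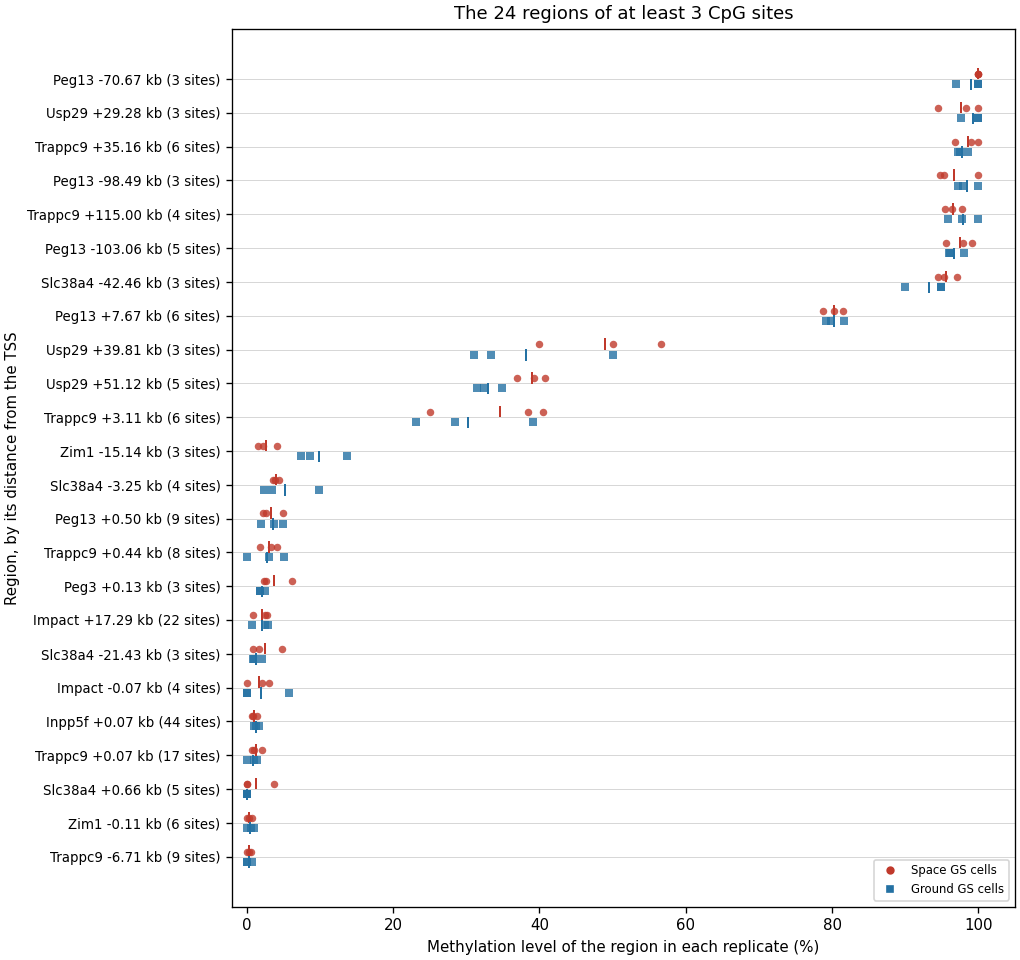
Methylation level (%) of the 24 regions of at least 3 CpG sites in each replicate, sorted by mean level and labelled by the distance (kb) of the first site from the TSS; circles are Space, squares Ground, and short bars group means. There are 13 regions below 10%, 4 between 10% and 90% and 7 above 90%. The intermediate *Peg13* region at 80.2% averages 1 low site with 5 sites above 90%, and the groups do not overlap at the upstream *Zim1* region and at the *Usp29* region farthest from the start.

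Space and Ground were then compared over the whole table, to ask whether storage in space left a change at these loci. No member feature passed the adjusted threshold. The quasi-binomial test with Benjamini-Hochberg adjustment called 0 of 92042 sites, 0 of 14361 promoters and 0 of 49134 regions at an adjusted p under 0.05, and the quasi-likelihood test of edgeR also called 0. At an unadjusted p under 0.05, 0 of the 30 member sites tested, 0 of 7 promoters and 1 of 24 regions passed, against 5.61%, 5.31% and 5.65% of all sites, promoters and regions. A group difference over 20 points was found at 1 of the 30 member sites (1.45% of all sites tested), 0 of 7 promoters (0.0279% of all promoters) and 0 of 24 regions (0.0672% of all regions).

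The groups did not overlap at 5 of the 30 member sites tested, 3 of which were the *Zim1* sites with identical coverage, against 9.07% of all sites tested. They did not overlap at 2 of the 24 member regions, against 9.25% of all regions, and at 0 of the 7 promoters on summed reads, against 9.55% of all promoters. The regional difference was positive in 13 and negative in 11, with a median of 0.21 percentage points beside 0.08 over all regions. Neighbouring sites often had identical coverage in every sample, so that the 44 sites of *Inpp5f* formed 16 such sets and the 26 of *Impact* formed 8, and sites of a gene are not independent measurements.

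*Peg3*, *Impact* and the others were last set beside other imprinted genes. The promoters of the 7 members with sites assigned within 1 kb were all below 10%, with a median of 1.76%, and 4 were higher and 3 lower in Space. In a list of 28 genes at oocyte-methylated loci, 19 of 20 with a measured promoter were below 10%, with a median of 1.71%. The lowest was *Herc3*, a ubiquitin ligase gene, at 1.01% and the highest was *Blcap*, which hosts the imprinted *Nnat*, at 97.3% on 2 sites. In a list of 7 genes at sperm-methylated loci, 5 of 5 measured promoters were below 10%, with a median of 2.76%. They ran from *Zdbf2* at 1.59% to *Meg3*, a noncoding RNA, at 4.78%. These levels cover sites within 1 kb only, and whether such windows hold the DMRs of the listed loci was not tested. Beyond 1 kb, 73 of 127 sites of the sperm-methylated list were below 10%, 33 were intermediate and 21 were in the highest class. Of 371 such sites of the oocyte-methylated list, 282 were below 10%, 28 were intermediate and 61 were in the highest class. Of all 16245 promoters, 14628 were below 10% and the median was 1.85%, so a low promoter was common in this table. Among the genes of both lists, with the members left out, the promoters closest in level to *Peg3* over the 6 samples were *Mkrn3*, *Gnas* and *Snurf*, with mean absolute differences of 0.911, 0.917 and 1.26 percentage points.

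**Figure D5:**
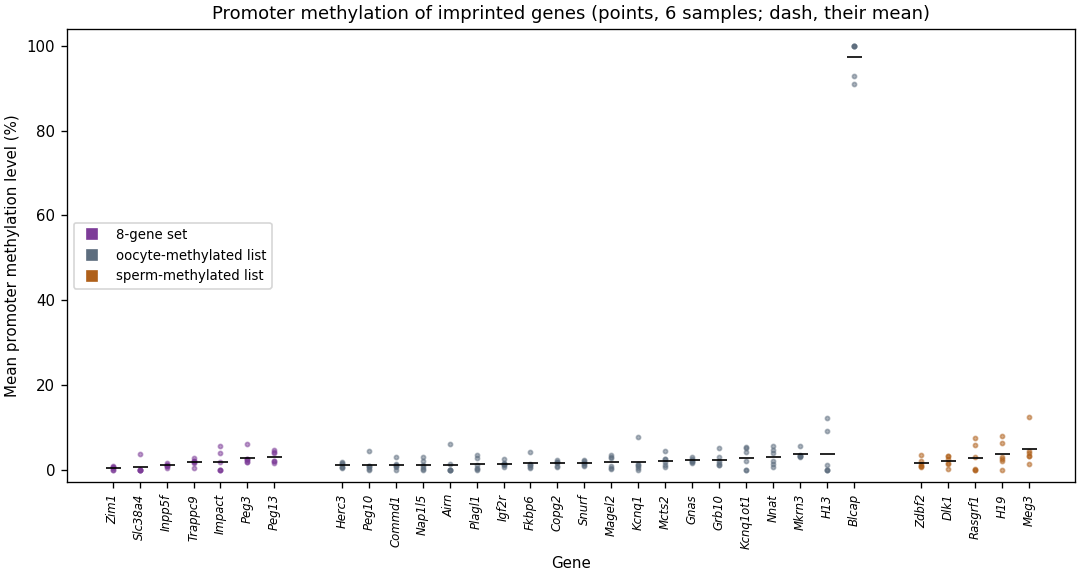
Mean methylation level (%) of the sites within 1 kb of the TSS in each of the 6 samples (points) and their mean (dashes), for the 7 measured members and the genes of the oocyte-methylated and sperm-methylated lists. All members lie below 10% in every sample, and *Blcap* is the single listed gene above it on average.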

How the data were processed

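RRBS libraries of genomic DNA were made by the authors from 3 replicates of Space GS cells and 3 of Ground GS cells with a Zymo-Seq kit. The submitters' processing notes name Trim Galore, Bismark 0.24.2, methylKit and the build mm39. The settings and the removal of duplicated reads are not given in the sources used here. The authors deposited a single table with, per CpG site and sample, the read coverage as a count and the methylated percent, and the closest TSS with its gene and distance. Position 1 is the first base, and both strands of a CpG are 1 row.

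Samples were assigned by their titles, and columns by the labels in the sample descriptions. Coverage multiplied by percent gave the methylated reads, all within 0.000266 of a whole read. The minimum was 10 reads in each of the 6 samples, which left 681804 of 2268080 sites. Reads over sites ranged from 28535973 to 33743845 per sample, with a median coverage of 27 to 32 and a mean level of 19.7% to 20.3%. A promoter held the sites within 1000 bp of a TSS, and a region 3 or more sites with gaps of up to 100 bp. The member and list promoter levels are means of site levels over any number of sites. The test needed at least 3 sites and summed their reads.

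Sites with a mean level of 5% to 95%, promoters and regions were tested by a quasi-binomial model of the methylated share of reads, with the Pearson dispersion moderated by squeezeVar of limma 3.58.1 in R 4.3.3, and Benjamini-Hochberg adjustment over all features (threshold 0.05). This test was tested on simulated data. The simulated features were drawn independently, so reads shared by neighbouring sites were not part of that simulation. Levels with a single value per sample were compared by two-sided exact permutation. The permutation p-values rest on the 3 replicates a group. The quasi-binomial p-values weigh a difference against counting error scaled by the moderated dispersion. That dispersion draws on the replicates of the feature and on all other features. Intervals and floors cover counting error only, since reads without molecular identifiers may be copies. The genes, the gene lists and the tests were chosen with earlier results of these data known. All 8 genes and all their regions are named, with sites that differed by over 20 points, the lowest and highest site level of each gene, the 3 listed genes closest to *Peg3*, and the lowest and highest gene of each list. Sites named for their p or for non-overlap were chosen after their values were seen. The alternatives tried were minimums of 5 or 20 reads, other windows and gaps, no filter on level, pooled reads, edgeR 4.0.16, a replicate block and leaving out each replicate. Replicate numbers come from the titles, and no source states what they share. Neighbouring starts came from GENCODE M21 and promoter windows from RefSeq (both GRCm38), used without converting positions. The software was data.table (version 1.17.8) and pandas (version 2.3.3), and figures were drawn with matplotlib 3.10.9 in Python 3.11.15. The RNA-seq data were not analysed here.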

Additional observations from a re-analysis of the deposited data

How the results depend on the processing

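No site, promoter or region of the 8 genes passed the adjusted threshold under any alternative run, and the lowest adjusted p of a member over all of them was 0.519. Over the whole table the promoter and region tests called 0 features under every alternative, and the site test called 0 to 5 when a replicate was left out (5 without Ground replicate 1, 1 without Space replicate 3) and 0 under the others. The number of member sites with an unadjusted p under 0.05 was 0, and it became 1 of 38 with a minimum of 5 reads (7.1% of all sites), 12 of 178 with no filter on the mean level (9.16%), and 0 to 2 when a replicate was left out, with 2 of 29 without Space replicate 2 (6.05%) and 5.88% to 6.93% of all sites over these 6 fits. The number of member regions was 1. It became 0 of 13 with a minimum of 20 reads (5.9% of all regions) and 0 of 21 with a gap of 50 bp (6.11%). When a replicate was left out it was 0 to 1, with 5.51% to 6.31% of all regions over these fits. It was 0 without Space replicate 3, Ground replicate 2 or Ground replicate 3.

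With the replicate number as a block, 4 of 30 member sites, 1 of 7 promoters and 2 of 24 regions had an unadjusted p under 0.05, against 6.39%, 7.33% and 8.76% of all sites, promoters and regions. Samples with the same number deviated together only weakly (correlations of 0.00988 to 0.0438 over 92042 sites, against -0.0367 to 0.0146 for other numbers). Of the 6 samples, 5 correlated best with their own number. Sample labels of the same replicate number also end in consecutive numbers across the groups, but no source states a pairing. Counting error at single sites weakens such correlations, so they cannot decide whether the samples were paired. The main tests took the samples as unpaired. Why the counts of features moved between the alternatives was not tested. The median differences of the promoter and distal levels moved by less than the replicate spread under every alternative. Of single genes, the distal difference (Space minus Ground, percentage points) moved by more in 4 cases: *Peg13* from -0.542 to 0.648 and *Trappc9* from 0.377 to 1.83 with a minimum of 20 reads, and *Trappc9* to -7.61 and *Slc38a4* from -0.0799 to 5.75 with reads pooled over sites. Pooling weighs deeper sites more. Averaged over sites, distal levels in Space and Ground were 57.2% and 56.9% at *Trappc9* and 43.1% and 43.1% at *Slc38a4*. The unmethylated *Trappc9* site 6607 bp upstream had 19, 26 and 35 reads in Space and 13, 20 and 16 in Ground. The *Slc38a4* site 4568 bp downstream, at 99.2%, had 40, 37 and 26 against 34, 22 and 20. High *Trappc9* sites were not all deeper in Ground. Whether depth gave the pooled differences was not tested. With 3 replicates a group the exact permutation test cannot go below 0.1. Sites with 10 to 20 reads leave wide intervals.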

Other observations

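Sites with fewer than 10 reads in some sample add to the *Peg3* and *Usp29* locus. Downstream of the *Peg3* TSS, 14 sites at 226 to 444 bp had 1 to 13 reads per sample, and 3 of 674 reads over these sites were methylated (0.445%). These 3 were in the Ground replicates, and 0 of 352 reads over sites were methylated in Space. Downstream of the *Usp29* TSS, 6 sites at 1197 to 1484 bp had 3 to 10 reads and were mostly methylated, with 180 of 228 reads over sites (78.9%). Their levels were 91.7%, 80.6% and 88.9% in Space and 80.0%, 69.0% and 75.0% in Ground. Every Space replicate was above every Ground replicate, but reads are shared between the sites, and no test was made at this depth. The sites read on the *Peg3* side of the shared start were thus almost unmethylated, and those read on the *Usp29* side were mostly methylated. Farther on the *Peg3* side, 10 sites at 1365 to 2810 bp had 0 methylated of 110 reads over sites, with no read in Space replicate 2. No site assigned to *Usp29* within 1 kb of its TSS had at least 5 reads in all samples. Where the level changes was therefore not seen.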
